A study of Rattus norvegicus with 21 samples.

Results

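Cell cycle and proliferation genes were followed in rat liver after early weaning. The group holds the genes that copy DNA, drive entry into mitosis, move the chromosomes and divide the cell. Its members were taken by symbol from a list of 45 genes, and 43 of the 45 had a row in both deposited tables of 32623 genes. E2f1 and Ccnb2 were not analysed here. RNA-seq was made from liver of Wistar rats at d23 and at d63, each as a control group and an early weaned group. It was also made from liver of Sprague Dawley rats at d211, as a control group, an early weaned group, and a group that was early weaned and drank water with 1.5% leucine, an essential amino acid. Early weaning means that pups lose access to milk sooner than usual, and the labels do not give the day. Each of the 7 groups had 3 libraries, 21 in all. The labels do not say that the libraries came from separate animals, so the p-values measure the spread between these libraries. Strain, table and the oldest age are the same split, so the Wistar and Sprague Dawley libraries were never tested against each other.

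In a dividing cell, E2F factors switch on the genes for DNA replication and nucleotide supply as the cell leaves G1, and the DREAM and MuvB complexes with B-Myb and FoxM1 control the mitotic genes that peak later. Cyclin-dependent kinases and their cyclins drive both steps, and the anaphase-promoting complex ends mitosis by destroying cyclin B and securin. Hepatocytes divide often in the growing liver and rest in the adult, but they can re-enter the cycle after injury or loss of tissue.

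Total counts ran from 53165564 to 71638683 per Wistar library and from 52054644 to 75118153 per Sprague Dawley library, where a sequenced fragment is worth about 4 count units. Hepatocyte markers were high in all libraries, with a summed level of 54800 to 120000 FPKM over 7 genes, so the tissue label held. FPKM is a read level per transcript length and per library size. The test across all genes was edgeR's two-sided quasi-likelihood test with Benjamini-Hochberg adjustment, and an adjusted p below 0.05 counted as a call. It covered 15416 Wistar genes, with 38 members among them, and 15019 Sprague Dawley genes, with 35 members. The members that stayed under the filter on low counts were Rrm2, Bub1b, Racgap1, Ect2 and Anln in the Wistar table. In the Sprague Dawley table they were Cdc6, Melk, Cdkn3, Bub1b, Ttk, Racgap1, Anln and Diaph3. Ccna2, Ccne2, Kif20a, Birc5, Tpx2 and Ect2 overlap another annotated gene, and strand-specific counting is not stated, so their reads cannot be told apart from those of the neighbour. Because the tissue is bulk liver, fewer cells in cycle and less RNA per cell cannot be told apart.

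Promoters are shown for 4 members that stand for the replication and mitosis branches of the cycle. Each is RefSeq sequence of the rat build GRCr8, from 250 bases before to 50 bases after the annotated start. It is written on the gene's own strand, and capitals mark the motifs searched. These were TTTGAA (the cell cycle homology region, CHR, bound by MuvB complexes), CCAAT (the NF-Y box), and the E2F forms TTTCCCGC, TTTGGCGC, TTTCGCGC and TTTGCCGC, all read on both strands. Cdk1, the kinase of mitotic entry, lies at chr20:19265043-19265342 on the plus strand. Ccnb1, its cyclin B1 partner, lies at chr2:33655176-33655475 on the minus strand. Mcm2, a subunit of the replicative helicase, lies at chr4:122918045-122918344 on the minus strand, and Pcna, the sliding clamp of DNA polymerase, at chr3:139955771-139956070 on the minus strand.
Cdk1: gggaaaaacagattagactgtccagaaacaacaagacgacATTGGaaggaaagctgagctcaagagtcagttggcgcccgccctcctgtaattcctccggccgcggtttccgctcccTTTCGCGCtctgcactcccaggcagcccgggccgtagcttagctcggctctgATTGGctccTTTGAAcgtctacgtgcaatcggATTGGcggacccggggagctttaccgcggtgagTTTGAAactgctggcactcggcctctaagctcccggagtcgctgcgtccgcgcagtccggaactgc
Ccnb1: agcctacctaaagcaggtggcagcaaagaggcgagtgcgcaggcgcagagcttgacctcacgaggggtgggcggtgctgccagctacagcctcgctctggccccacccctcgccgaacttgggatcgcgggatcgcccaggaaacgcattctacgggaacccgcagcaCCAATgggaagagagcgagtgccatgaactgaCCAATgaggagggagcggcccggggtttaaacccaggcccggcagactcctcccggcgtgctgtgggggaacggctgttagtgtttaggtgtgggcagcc
Mcm2: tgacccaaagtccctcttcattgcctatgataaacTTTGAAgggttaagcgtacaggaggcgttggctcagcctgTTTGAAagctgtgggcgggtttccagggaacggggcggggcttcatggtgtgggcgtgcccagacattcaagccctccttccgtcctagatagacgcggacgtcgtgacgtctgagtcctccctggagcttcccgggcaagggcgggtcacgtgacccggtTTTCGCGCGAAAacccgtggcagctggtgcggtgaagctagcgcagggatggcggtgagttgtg
Pcna: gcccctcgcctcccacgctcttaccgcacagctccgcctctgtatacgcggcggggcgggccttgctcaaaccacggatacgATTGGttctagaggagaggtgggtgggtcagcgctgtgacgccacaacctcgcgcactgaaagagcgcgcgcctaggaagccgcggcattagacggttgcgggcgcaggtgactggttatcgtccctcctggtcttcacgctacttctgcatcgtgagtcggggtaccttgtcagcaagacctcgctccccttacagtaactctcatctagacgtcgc

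The Cdk1 window held 2 CHR matches, 3 CCAAT matches and 1 E2F match, with the CHR matches 72 and 16 bases before the start. The Ccnb1 window held 2 CCAAT matches, 82 and 50 bases before the start, and no match to the other motifs. The Mcm2 window held 2 CHR matches and an overlapping pair of E2F matches that begin 14 and 10 bases before the start, and the Pcna window held 1 CCAAT match. Of the 43 members, 34 matched a RefSeq promoter. A CHR match stood in 17 of 25 promoters of mitotic, checkpoint, chromosome and cytokinesis members (68.0%), in 1 of 9 of replication, nucleotide and S-phase entry members (11.1%), and in 18.3% of all 33469 promoters of the same length. An E2F match stood in 1 of the 25 (4.0%), in 5 of the 9 (55.6%) and in 2.14% of all promoters. A CCAAT match stood in 20 of the 25 (80.0%), in 5 of the 9 (55.6%) and in 37.5% of all promoters. A match is a stretch of letters and no binding was measured.

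Most members were low in liver, and the replication clamp Pcna stood far above the rest. Its mean over the 12 Wistar libraries was 13.3 FPKM and over the 9 Sprague Dawley libraries 12.3 FPKM. Tk1, the thymidine kinase that salvages thymidine for DNA, followed at 4.80 and 4.0 FPKM. Next in the Wistar table were Birc5 (survivin, a subunit of the chromosomal passenger complex) at 1.41 FPKM and Ccne1 (cyclin E1, which opens S phase) at 1.38 FPKM. Next in the Sprague Dawley table were Tyms (thymidylate synthase) at 2.22 FPKM and Mcm2 at 1.40 FPKM. The lowest means in the Wistar table were 0.0317 FPKM for Racgap1, 0.0517 for Uhrf1, 0.055 for Anln and 0.0592 for Melk. In the Sprague Dawley table they were 0.00214 FPKM for Melk, 0.00501 for Bub1b, 0.00593 for Anln and 0.00775 for Racgap1. Racgap1 and Anln build the cleavage furrow, Uhrf1 copies DNA methylation behind the fork, Bub1b is a spindle checkpoint kinase, and Melk is a mitotic kinase. Their counts lay under 3 fragments (12 count units) in most libraries, the floor below which a level is not read here.

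**Figure D1:**
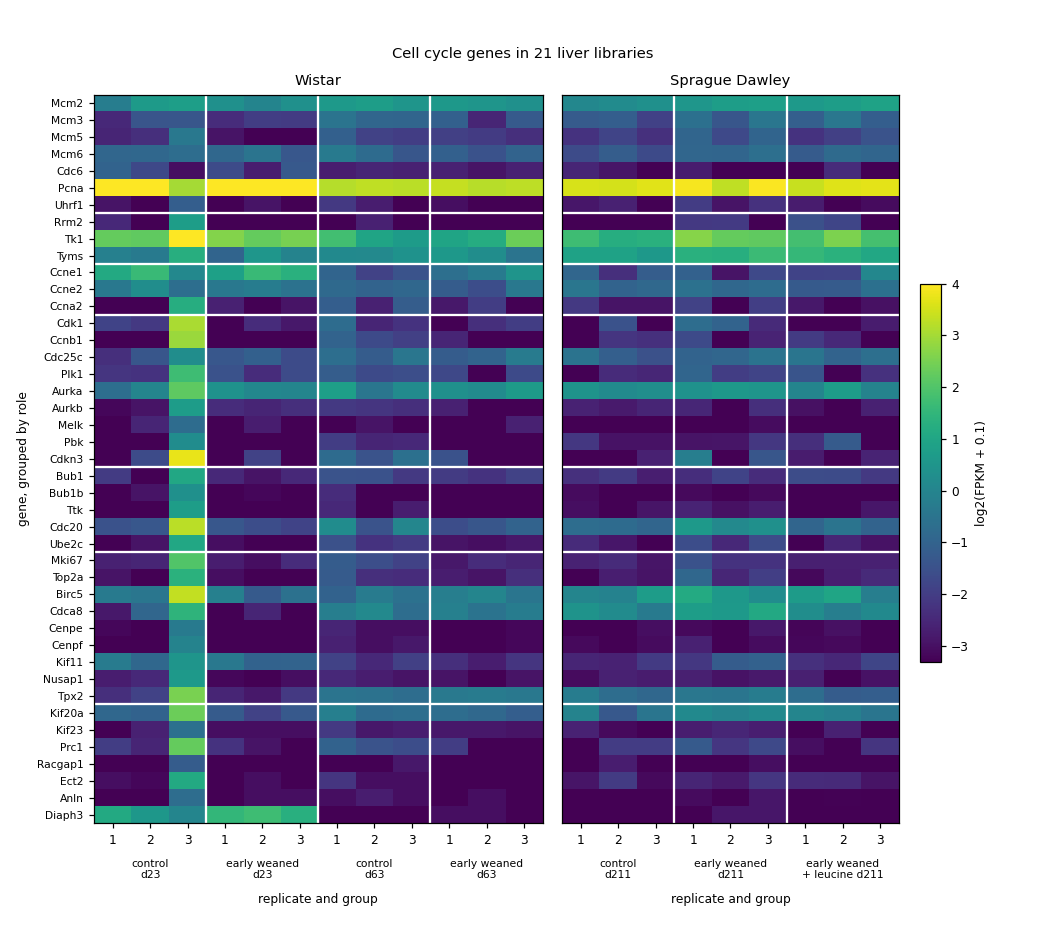
Level of each of the 43 genes (rows, grouped by role) in each library (columns, grouped by treatment and age), as log2(FPKM + 0.1), with colours that stop at 4. The column of the library labelled d23 control replicate 3 is bright through the mitotic rows, and its Pcna cell is darker than those of the other d23 libraries.

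A library labelled d23 control replicate 3 stood apart from its group. Across expressed genes its log levels correlated at 0.898 to 0.901 with the other d23 controls, below its 0.912 to 0.939 with the d63 controls. With the early weaned libraries they correlated at 0.904 to 0.918 at d23 and at 0.91 to 0.917 at d63. The d63 libraries correlated at 0.932 to 0.98 among themselves. The other d23 libraries correlated at 0.962 to 0.977 among themselves, and at 0.823 to 0.879 with the d63 libraries. It had the highest level of all 12 Wistar libraries in 36 of the 43 members, and the ratio to the next library was at least 2 in 31 of them and at least 5 in 26. The same shares over all genes were not counted. The summed level of the 43 members was 135.1 FPKM in it, 33.31 and 41.71 FPKM in the other d23 controls, and 20.32 to 36.51 FPKM in the 9 other Wistar libraries. In it 29 members reached 1 FPKM, against 3 to 6 in each other Wistar library.

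The higher levels in that library ran through the mitotic and nucleotide members and not through every member. Mki67, the nuclear protein Ki-67 used to stain cycling cells, was at 3.96 FPKM in it and at 0.06 and 0.07 in the other d23 controls. Cdk1 was at 8.31 FPKM against 0.18 and 0.13, and Ccnb1 at 7.30 FPKM against 0 and 0. In count units, Mki67 was at 2389 against 34 and 40, Cdk1 at 717 against 15 and 11, and Ccnb1 at 717 against 0 and 0, where the floor is 12. Cdc20, which activates the anaphase-promoting complex, was at 9.29 FPKM against 0.26 and 0.30. Cdkn3, a phosphatase that acts on cyclin-dependent kinases, was at 13.4 FPKM against 0 and 0.22, the largest ratio to the next Wistar library among the members (24.4). Top2a, the topoisomerase that untangles sister chromosomes, was at 2.46 FPKM against 0.03 and 0. The replication and nucleotide members were mixed. Tk1 was at 16.1 FPKM in it against 4.72 and 4.55, Tyms at 2.30 against 0.82 and 0.71, and Rrm2, the small subunit of ribonucleotide reductase, at 1.58 against 0.08 and 0. Mcm5, a helicase subunit, was at 0.67 FPKM against 0.07 and 0.10, and Uhrf1 at 0.36 against 0.03 and 0. These members were thus higher in it too. Pcna was lower in it, at 7.99 FPKM against 17.4 and 24.0, and Ccne1 was at 0.97 FPKM against 2.09 and 3.01. Mcm2 was at 1.63 FPKM against 0.76 and 1.49, so this helicase subunit did not stand apart.

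The same library also differed in genes outside the 43. In a list of 24 further mitosis genes the summed level was 57.2 FPKM in it and 3.56 to 10.6 FPKM in the 11 other Wistar libraries. Myc, a growth-promoting transcription factor, was at 5.30 FPKM in it against 113.92 and 96.04 in the other d23 controls, and at 1.24 to 2.96 at d63. Btg2, an antiproliferative gene induced by p53, was at 8.48 FPKM against 589.47 and 391.99, and at 3.62 to 6.61 at d63. Its hepatocyte marker sum was 120000 FPKM against 73500 and 75800. Its sums were also higher for cholangiocytes (12.8 against 9.1 and 9.61) and, slightly, for lymphocytes (2.55 against 2.42 and 1.47). They were lower for Kupffer cells (192 against 216 and 284), endothelium (71.6 against 77.3 and 80.4) and stellate cells (158 against 179 and 192). The erythroid sum lay between, at 5950 against 5060 and 7160. The part of these differences in the cell cycle values was not tested. The d23 control results are therefore given with and without this library.

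**Figure D2:**
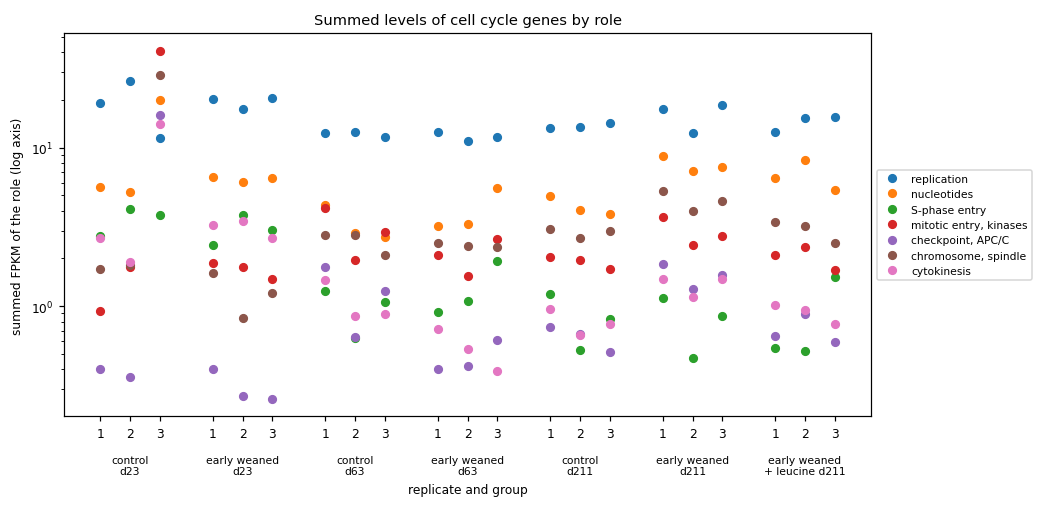
Summed FPKM of the members of each role (log axis) in each of the 21 libraries, by replicate and group. In the library labelled d23 control replicate 3 the mitotic entry sum is 40.84 FPKM and the replication sum is 11.47 FPKM, whereas in each other library the replication sum is the highest of the 7.

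Between d23 and d63, 3 members changed in control livers whichever library was left out, and each fell. Diaph3, a formin that builds actin filaments for cytokinesis, was at 2.09, 1.38 and 0.90 FPKM in the d23 controls and at 0 in all 3 d63 controls. Its level was at least 27.81-fold lower at d63, taking 12 count units per library as the floor (adjusted p = 0.000718). Ccne1 was at 2.09, 3.01 and 0.97 FPKM at d23 and at 0.41, 0.17 and 0.27 at d63. Neither gene overlapped between the ages. By counts scaled to library size, 5 members lay wholly lower at d63 and 1 wholly higher. The same shares over all genes are not given here. Ccne1 fell by 2.80 log2 units (SE 0.505, adjusted p = 0.00846). Kif11, the kinesin that separates the spindle poles, was at 0.72, 0.45 and 1.32 FPKM at d23 and at 0.17, 0.08 and 0.16 at d63. It fell by 2.56 log2 units (SE 0.483, adjusted p = 0.00947). Tk1 was at 4.72, 4.55 and 16.1 FPKM at d23 and at 3.32, 1.85 and 1.52 at d63, and it fell by 1.91 (SE 0.552, adjusted p = 0.0385). The fit pools the spread of all 4 Wistar groups. Fitted on the 6 control libraries alone, Diaph3 still passed, while Ccne1 and Kif11 had adjusted p of 0.0594 and 0.0636. Tk1 passed the test with all libraries, and its adjusted p was 0.0517 to 0.122 when any 1 of the 6 was left out.

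With these 4 members, 4 of the 38 tested passed the test, all of them lower at d63, against 17.6% of all 15416 genes. The direction of the others turned on the library that stood apart. With it, 34 of 38 members had a lower value at d63 and the median log2 difference was -1.92, against -0.04 for all genes. Without it, 28 of 38 had a higher value and the median was 1.39. The median was 1.07 with members at 0 in a whole group set to their bound, or to no difference where no bound could be given. Then 9 of the 38 passed, 4 higher and 5 lower, against 37.9% of all genes. Those higher at d63 were Tpx2, which nucleates spindle microtubules, Mki67, Cenpf and Ccna2. Those lower were Diaph3, Pcna, Ccne1, Kif11 and Cdc6, the loader of the replicative helicase.

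Tpx2 was at 0.10 and 0.17 FPKM in the remaining d23 controls and at 0.60, 0.58 and 0.51 in the d63 controls, a rise of 2.04 log2 units (SE 0.438, adjusted p = 0.00495). Mki67 was at 0.06 and 0.07 FPKM and at 0.34, 0.24 and 0.17. Its difference was 2.03 without the library that stood apart (SE 0.579, adjusted p = 0.0199) and -2.42 with it (SE 1.27, adjusted p = 0.197). Pcna was at 17.4 and 24.0 FPKM in the remaining d23 controls and at 9.06, 9.73 and 9.38 at d63. It fell by 1.12 without that library (SE 0.134, adjusted p = 0.000199), and with it the difference was -0.80 (SE 0.291, adjusted p = 0.0791). Cenpf, a kinetochore protein, and Ccna2, cyclin A2 of S phase and G2, were at 0 in both remaining d23 controls. Their d63 levels were at least 2.096-fold and 3.059-fold above the floor of 12 count units per library (adjusted p = 0.0393 and 0.042).

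The other members named throughout did not pass in controls, with or without the library that stood apart. Cdk1 differed by -3.61 with all libraries (SE 1.62, adjusted p = 0.140) and by 0.61 without it (SE 1.51, adjusted p = 0.781). Top2a differed by -2.24 (SE 1.66, adjusted p = 0.364) and by 3.38 without it (SE 1.65, adjusted p = 0.134). Its remaining d23 controls were at 11 and 0 count units, under the floor, so the latter size depends on the prior count. Ccnb1 differed by -3.22 (SE 2.09, adjusted p = 0.305). Without that library its d23 controls were at 0 and the d63 level was at least 2.106-fold above the floor (adjusted p = 0.0556). For all 3 the sign thus turned on 1 library. Mcm2, at 0.76, 1.49 and 1.63 FPKM at d23 and 1.44, 1.59 and 1.32 at d63, differed by 0.18 (SE 0.255, adjusted p = 0.651) and by 0.39 without it (SE 0.259, adjusted p = 0.269).

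**Figure D3:**
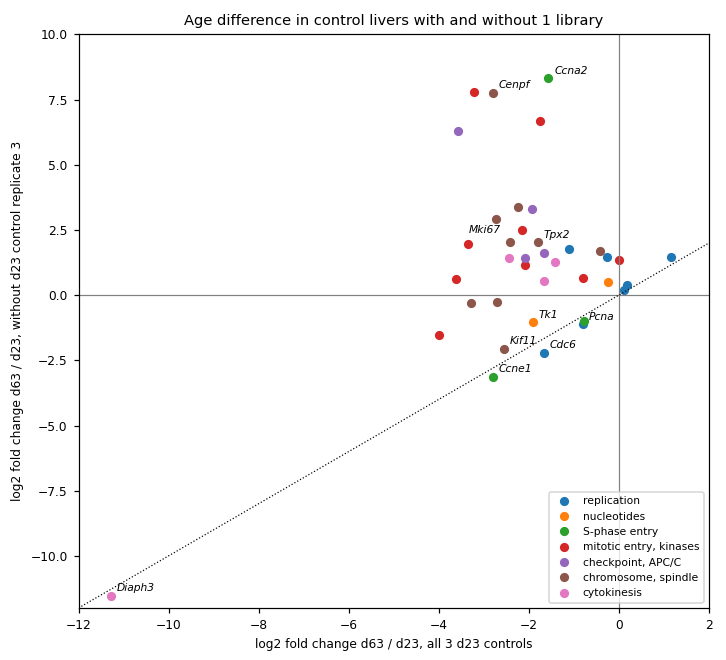
Log2 fold change from d23 to d63 in control livers for each of the 38 tested genes, with all 3 d23 controls (x axis) and without d23 control replicate 3 (y axis), coloured by role; genes called in either fit are named and the dotted line marks equal values. Diaph3, Ccne1, Kif11, Cdc6 and Pcna lie near the dotted line, while Tpx2, Mki67, Cenpf and Ccna2 lie left of 0 on x and above 0 on y.

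Between d23 and d63, Diaph3 and Kif11 fell and Cdca8 rose in early weaned livers, a group without the library that stood apart. Diaph3 was at 2.78, 3.20 and 2.35 FPKM at d23 and at 0.02, 0.02 and 0 at d63, and it fell by 7.54 log2 units (SE 0.706, adjusted p = 0.000711). At d63 its counts were 4, 4 and 0 count units, under the floor, so the size of the fall depends on the prior count of the fit. Kif11 was at 0.67, 0.39 and 0.40 FPKM and at 0.10, 0.05 and 0.12, and it fell by 2.27 (SE 0.485, adjusted p = 0.00932). Both genes passed whichever early weaned library was left out. Cdca8, borealin of the chromosomal passenger complex, was at 0, 0.07 and 0 FPKM at d23 and at 0.82, 0.59 and 0.75 at d63, a rise of 4.86 (SE 1.43, adjusted p = 0.0305). Its d23 counts were 0, 8 and 0 units, under the floor, so the size of the rise depends on the prior count. Its adjusted p was 0.0646 without early weaned d63 replicate 1, 0.0630 without replicate 2 and 0.0640 without replicate 3, and 0.0898 and 0.0806 without early weaned d23 replicates 1 and 3.

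In early weaned livers, then, 3 of 38 members passed, 1 higher and 2 lower, against 27% of all genes. The spread of the fit is shared by the 12 Wistar libraries, and without d23 control replicate 3 the count was 7 of 38, 3 higher and 4 lower, against 37.3% of all genes. The added calls were Tpx2, Mcm5, Pcna and Ccne1. Tpx2 was at 0.07, 0.04 and 0.13 FPKM at d23 and at 0.68, 0.73 and 0.66 at d63, and it rose by 3.19 (SE 0.396, adjusted p = 0.000256). Pcna was at 18.4, 15.9 and 18.7 FPKM at d23 and at 10.2, 9.21 and 9.56 at d63, and it fell by 0.75 (SE 0.123, adjusted p = 0.00118). Mcm5 was at 0.03, 0 and 0 FPKM and at 0.16, 0.14 and 0.10. Each of these 3 genes had no overlap between the ages. By counts scaled to library size, 9 members lay wholly higher at d63 and 5 wholly lower. The same shares over all genes are not given here. Ccne1 was at 1.70, 2.99 and 2.43 FPKM and at 0.54, 0.70 and 1.27, and it fell by 1.37 (SE 0.403, adjusted p = 0.0233). With all 12 libraries these 4 had adjusted p between 0.0538 and 0.0763.

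In early weaned livers 25 of 38 members had a higher value at d63 and 11 a lower one, with a median log2 difference of 0.45. With members at 0 in a whole group set to no difference, since no bound could be given, the median was 0.38. The median over all genes was -0.02. Of the members named throughout, Mki67 differed by 0.43 (SE 1.30, adjusted p = 0.830), Top2a by 3.21 (SE 2.05, adjusted p = 0.259) and Cdk1 by 1.04 (SE 1.79, adjusted p = 0.690). Top2a and Cdk1 were under the floor in every early weaned d23 library, so these sizes depend on the prior count. Ccnb1 was at 0 in all 3 libraries at d23 and under the floor on average at d63, so no fold is given. Tk1 differed by -0.73 (SE 0.537, adjusted p = 0.325), and Mcm2 by 0.38 (SE 0.256, adjusted p = 0.280).

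Markers of other cell types moved with age too. The summed level of 8 lymphocyte markers was 1.47 to 2.55 FPKM over the d23 libraries and 3.48 to 9.72 FPKM over the d63 libraries, without overlap. The sum of 7 stellate cell markers was 134 to 192 FPKM at d23 and 60.9 to 88.6 FPKM at d63. The sum of 6 endothelial markers was 69.3 to 91.2 FPKM at d23 and 30.3 to 64.2 at d63. The lymphocyte markers Cd2 and Ms4a1 were at 0 in the early weaned d23 group. The part of these cell types in the members' changes was not tested.

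**Figure D4:**
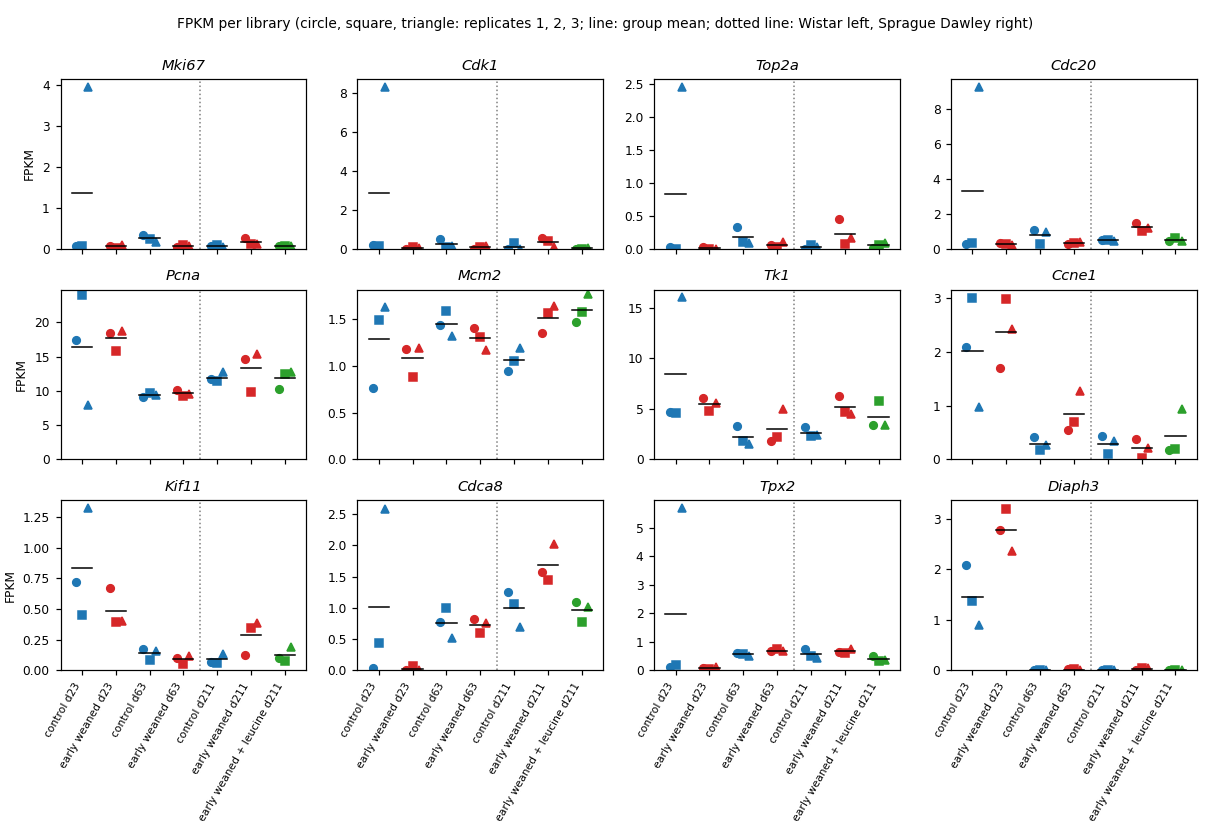
FPKM of 12 members (panels, each with its own axis from 0) in the 7 groups, with a point per library and a line at the group mean; markers tell replicates 1, 2 and 3 apart. The triangle of the d23 controls stands alone for Mki67, Cdk1, Top2a, Cdc20 and Tpx2, and Diaph3 is near 0 from d63 on.

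At d23, none of the 38 members passed edgeR's test for early weaning, with or without control replicate 3, against 0.013% and 0.019% of all genes. At an unadjusted p below 0.05 there were 20 members with all libraries, DESeq2 called 2 and limma none. Without control replicate 3 there were 2 members at an unadjusted p below 0.05. Of the 38, 35 had a lower value after early weaning, with a median log2 difference of -3.44, or -3.30 with members at 0 in a whole group set to their bound. Without control replicate 3, 26 had a lower value and 8 a higher one, and the median was -0.28. The size of that difference thus came from 1 library. With members at 0 in a whole group set to no difference, since no bound could be given, the median was -0.26. The median over all genes was -0.03.

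The members of smallest p at d23 were Cdca8, Tpx2 and Mcm5. Cdca8 was at 0.04, 0.43 and 2.59 FPKM in controls and at 0, 0.07 and 0 after early weaning, with a difference of -5.27 (SE 1.45, adjusted p = 0.580). Without control replicate 3 the difference was -3.16 (SE 1.21, adjusted p = 0.568). Early weaned counts of Cdca8 were 0, 8 and 0 units, under the floor, so both sizes depend on the prior count. Tpx2 differed by -4.61 (SE 1.28, adjusted p = 0.591), and by -0.78 without control replicate 3 (SE 0.423, adjusted p = 0.706). Mcm5 was at 0.07, 0.10 and 0.67 FPKM in controls and at 0.03, 0 and 0 after early weaning. Its difference was -4.65 (SE 1.31, adjusted p = 0.619), and it was 1 of 4 members that lay wholly below the controls, where 5.02% of all genes did so. Early weaned counts of Mcm5 were 7, 0 and 0 units, also under the floor. DESeq2 called Cdca8 (adjusted p = 0.00714) and Mcm5 (adjusted p = 0.0150). Diaph3 went the other way and was the 1 member wholly above the controls. It was at 2.78, 3.20 and 2.35 FPKM after early weaning and at 2.09, 1.38 and 0.90 in controls. The share of all genes wholly above is not given here.

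The usual proliferation markers were low in the early weaned d23 libraries, with Mki67 at 32, 17 and 60 count units, Cdk1 at 0, 9 and 4, and Top2a at 8, 0 and 0. Mki67 was at 0.05, 0.02 and 0.09 FPKM, beside 0.06, 0.07 and 3.96 in controls, a difference of -4.70 (SE 1.42, adjusted p = 0.666), and of -0.25 without control replicate 3 (SE 0.548, adjusted p = 0.973). Cdk1 was at 0, 0.09 and 0.04 FPKM beside 0.18, 0.13 and 8.31 (adjusted p = 0.666), and Top2a at 0.02, 0 and 0 beside 0.03, 0 and 2.46 (adjusted p = 0.666). Ccnb1 was at 0 in all 3 early weaned libraries and in controls 1 and 2 (adjusted p = 0.692). Without control replicate 3 the difference was -1.77 for Cdk1 (SE 1.52, adjusted p = 0.845), from counts of 15 units or fewer, while Top2a was under the floor and Ccnb1 at 0 in both groups. The replication genes lay closer together. Pcna was at 18.4, 15.9 and 18.7 FPKM beside 17.4, 24.0 and 7.99, a difference of 0.08 (SE 0.289, adjusted p = 1). Mcm2 was at 1.18, 0.88 and 1.19 FPKM and differed by -0.28 (SE 0.256, adjusted p = 0.968), and Tk1, at 6.12, 4.77 and 5.56 FPKM, by -0.66 (SE 0.534, adjusted p = 0.953). Without control replicate 3 the differences were -0.25 for Pcna (SE 0.135, adjusted p = 0.706), -0.08 for Mcm2 (SE 0.257, adjusted p = 0.988) and 0.21 for Tk1 (SE 0.435, adjusted p = 0.969).

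At d63 no member passed between the Wistar groups either. None of the 38 members passed, nor did any of the 15416 genes (0%). Without d23 control replicate 3, still none of the members passed, against 0.00632% of all genes. At an unadjusted p below 0.05 there were 2 members, and DESeq2 and limma called none. Of the 38, 27 had a lower value after early weaning and 11 a higher one, with a median of -0.77 against -0.01 for all genes. With members at 0 in a whole group set to no difference, since no bound could be given, the median was -0.53. The 9 members wholly below the controls stand beside 9.19% of all genes, and the 3 wholly above beside 9.55%. The median was -0.31 without control d63 replicate 1 and -1.27 without early weaned d63 replicate 3. Markers of several other cell types were lower too, in 8 of 8 lymphocyte, 7 of 7 Kupffer cell and 6 of 6 endothelial genes, with medians of -0.70, -0.50 and -0.57 and none past the test. Erythroid markers were lower in 7 of 8 (median -0.82), cholangiocyte markers in 4 of 6 (-0.54) and stellate markers in 4 of 7 (-0.11). Hepatocyte markers were lower in 2 of 7 (median 0.09). Sums overlapped, at 3.48 to 6.93 FPKM after early weaning against 4.50 to 9.72 for lymphocytes, 132 to 193 against 171 to 340 for Kupffer cells, and 30.3 to 41.9 against 38.2 to 64.2 for endothelium. The part of these cells in the members' values at d63 was not tested.

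Ccne1, the member of smallest p at d63, was at 0.54, 0.70 and 1.27 FPKM after early weaning and at 0.41, 0.17 and 0.27 in controls. The groups did not overlap, and the difference was 1.64 (SE 0.491, adjusted p = 0.679). Diaph3, next by p, was under the floor in both groups, and so was Pbk, a mitotic kinase, in most libraries, so no fold is given (adjusted p = 0.716 and 0.836). Mki67 was at 0.04, 0.09 and 0.07 FPKM after early weaning and at 0.34, 0.24 and 0.17 in controls. All 3 early weaned libraries were below the controls, with a difference of -1.85 (SE 1.28, adjusted p = 0.924). Cdk1, at 0, 8 and 15 count units after early weaning, differed by -1.34 (SE 1.63, adjusted p = 0.984), and Top2a by -1.40 (SE 1.68, adjusted p = 0.984). Ccnb1 was at 8, 0 and 0 count units after early weaning, under the floor, so no fold is given (adjusted p = 0.949). The replication markers differed less, with Pcna at 0.13 (SE 0.290), Mcm2 at -0.08 (SE 0.255) and Tk1 at 0.52 (SE 0.537), all at adjusted p of 0.982 to 1.

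The difference between the early weaning effects at d63 and at d23 was tested as an interaction. None of the 38 members passed, against 0.00649% of all genes, 5 had an unadjusted p below 0.05, and DESeq2 and limma called none. Tpx2 had the smallest p, with a difference of 4.99 (SE 1.65, adjusted p = 1.00), then Cdca8 at 5.27 (SE 1.81) and Birc5 at 3.25 (SE 1.27). The median over members was 2.60, and it was -0.22 without d23 control replicate 3. The markers Mki67 (2.85, SE 1.80), Cdk1 (4.65, SE 2.39), Top2a (5.45, SE 2.64), Tk1 (1.18, SE 0.758), Mcm2 (0.21, SE 0.361) and Pcna (0.05, SE 0.410) did not pass. Ccnb1, at 0 in a whole group, did not pass either. Cdca8, Cdk1 and Top2a were under the floor in every early weaned d23 library, so the sizes of their differences depend on the prior count.

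At d211, early weaned Sprague Dawley livers held more RNA of several mitotic and nucleotide genes than controls in every library, but no member passed edgeR's test. None of 35 members passed, against 0.719% of all 15019 genes, and 4 had an unadjusted p below 0.05. DESeq2 and limma on log2(FPKM + 1) each called 1, Cdc20, and limma on log2(FPKM + 0.1) called none. Of the 35, 28 had a higher value after early weaning and 7 a lower one, with a median of 0.52, against 0.02 for all genes. By scaled counts, the 7 members wholly above the controls were Cdc20, Tk1, Top2a, Mki67, Tyms, Cdca8 and Plk1, the polo kinase of mitosis. They stand beside 11.2% of all genes, and the 0 members wholly below stand beside 10.6%. Some of the 7 were near the floor of 12 count units. Control counts were 0, 23 and 12 for Top2a and 0, 16 and 12 for Plk1. The lowest early weaned libraries were at 25 and 22. In FPKM, the replication members Mcm2, Mcm5 and Mcm6 and the cytokinesis member Kif20a also lay wholly above the controls. The margin was narrow for Kif20a (0.876 against 0.866) and Mcm5 (0.204 against 0.185). The share of all genes in FPKM was not counted.

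By role, values were higher after early weaning in 3 of 3 tested checkpoint and anaphase-promoting members, 3 of 3 nucleotide members, 4 of 4 cytokinesis members, 8 of 9 chromosome and spindle members, 5 of 6 replication members, 4 of 7 mitotic kinases and cyclins, and 1 of 3 S-phase entry members. None of these members passed the test.

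Cdc20 was at 1.44, 0.996 and 1.19 FPKM after early weaning and at 0.512, 0.495 and 0.425 in controls. The lowest early weaned library held 138 count units and the highest control 85. The difference was 1.10 log2 units (SE 0.301, adjusted p = 0.106 by edgeR, 0.0126 by DESeq2 and 0.0441 by limma on log2(FPKM + 1)). Tk1 was at 6.31, 4.68 and 4.53 FPKM and at 3.20, 2.28 and 2.42 in controls, a difference of 0.76 (SE 0.241, adjusted p = 0.147). Tyms was at 2.41, 2.29 and 3.08 FPKM and at 1.78, 1.75 and 1.40, a difference of 0.44 (SE 0.233, adjusted p = 0.380). In both nucleotide genes all early weaned libraries lay above all controls.

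Mki67 was at 0.256, 0.110 and 0.109 FPKM after early weaning and at 0.0634, 0.0871 and 0.0342 in controls. That is 168, 69 and 70 count units against 34, 67 and 24, so the lowest early weaned library was close to the highest control. The difference was 1.11 (SE 0.498, adjusted p = 0.292). Top2a was at 0.446, 0.0709 and 0.156 FPKM and at 0, 0.0520 and 0.0294, a difference of 2.67 (SE 1.19, adjusted p = 0.289). Its controls held 0, 23 and 12 count units, so the size of this difference is not firm. Kif11 was at 0.126, 0.341 and 0.387 FPKM and at 0.0682, 0.0619 and 0.135, a difference of 1.48 (SE 0.605, adjusted p = 0.251), with overlap. Cdk1 differed by 1.65 (SE 1.71, adjusted p = 0.690) and Ccnb1 by 0.00 (SE 1.70, adjusted p = 1.00), both with libraries at 0. Pcna, at 14.7, 9.78 and 15.4 FPKM beside 11.7, 11.4 and 12.7, differed by -0.07 (SE 0.166, adjusted p = 0.882), and Mcm2, at 1.35, 1.57 and 1.64 beside 0.943, 1.06 and 1.19, by 0.31 (SE 0.201, adjusted p = 0.487).

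Summed over roles, the checkpoint and anaphase-promoting members reached 1.84, 1.28 and 1.57 FPKM after early weaning and 0.735, 0.671 and 0.510 in controls. The chromosome and spindle members reached 5.30, 4.0 and 4.58 FPKM against 3.06, 2.68 and 2.96. The replication members reached 17.7, 12.3 and 18.7 FPKM against 13.4, 13.5 and 14.4, with overlap. Early weaned replicates 1 and 3 held the highest level of the 9 libraries in 16 and 11 of the 43 members. The same share over all genes was not counted. These members include some under the floor, such as Melk and Anln at 4 and 8 count units in replicate 3.

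**Figure D5:**
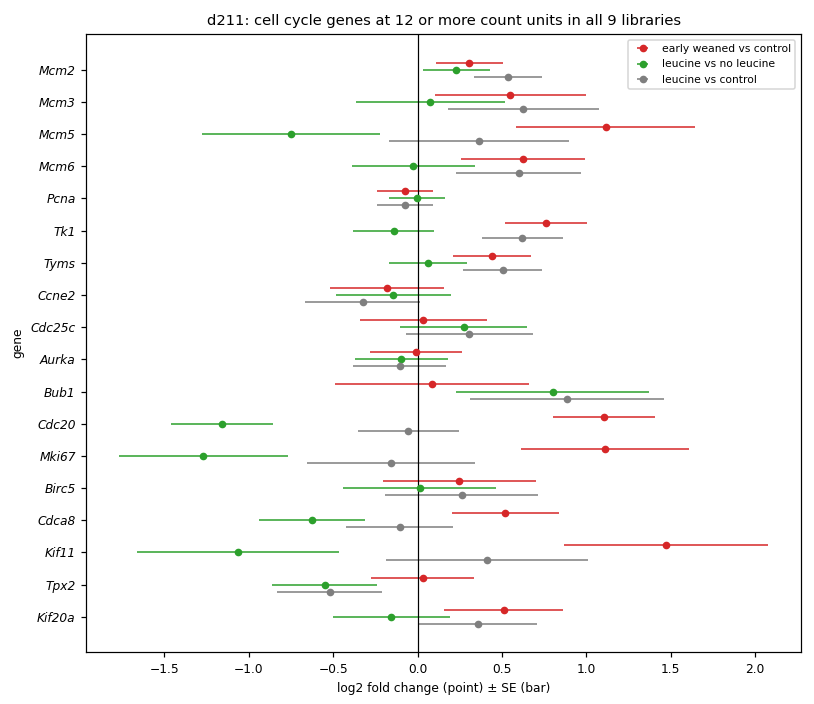
Log2 fold change (point) and its SE (bar) at d211 for the 18 genes at 12 or more count units in all 9 libraries, for early weaned against control, leucine against no leucine, and leucine against control. Cdc20 lies at 1.10 for early weaning, at -1.16 for leucine against no leucine and at -0.05 for leucine against control.

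Leucine in the water was compared with early weaning alone, and then with controls. These 3 comparisons share groups, so their values are given side by side and not as independent results. None of the 35 members passed between leucine and no leucine, against 0.36% of all genes. There, 2 members had an unadjusted p below 0.05, DESeq2 called 1 (Cdc20, adjusted p = 0.0116) and limma none. With leucine 26 of the 35 had a lower value, with a median of -0.43, against 0.00 for all genes. By scaled counts, the 6 members wholly below the early weaned group were Cdc20, Mki67, Cdk1, Cdca8, Tpx2 and Ube2c, the ubiquitin-conjugating enzyme of the anaphase-promoting complex, where 10.5% of all genes lay wholly below. In FPKM the cytokinesis member Prc1 also lay wholly below, by a narrow margin (0.12 against 0.122), and the share of all genes in FPKM was not counted.

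By role, values were lower with leucine in 8 of 9 chromosome and spindle members, 4 of 4 cytokinesis members, 5 of 7 mitotic kinases and cyclins, 4 of 6 replication members, 2 of 3 checkpoint members, 2 of 3 S-phase entry members and 1 of 3 nucleotide members.

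Cdc20 was at 0.426, 0.601 and 0.405 FPKM with leucine, a difference of -1.16 from early weaning alone (SE 0.302, adjusted p = 0.122). Mki67 was at 0.0576, 0.0556 and 0.0601 FPKM with leucine, a difference of -1.27 (SE 0.501, adjusted p = 0.311). Cdk1 was at 0, 0 and 0.0476 FPKM with leucine and at 0.516, 0.407 and 0.0814 without it, with an adjusted p of 0.454. Its counts with leucine were 0, 0 and 5 units, under the floor, so no fold is given, and the lowest early weaned library was at 8 units. All leucine libraries of Cdc20 and Mki67 lay below all early weaned libraries. Top2a differed by -1.99 (SE 1.15, adjusted p = 0.533), Tk1 by -0.14 (SE 0.240, adjusted p = 0.898) and Mcm2 by 0.23 (SE 0.200, adjusted p = 0.721). Pcna differed by -0.00 (SE 0.166, adjusted p = 0.998) and Ccnb1 by -0.07 (SE 1.67, adjusted p = 0.994).

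Between leucine and control livers, none of the 35 members passed, against 0.0133% of all genes. There, 3 members had an unadjusted p below 0.05, and DESeq2 and limma called none. The median was -0.04, with 17 members higher and 18 lower. By scaled counts, the 3 members wholly above the controls were Mcm2, Tk1 and Tyms, where 8.26% of all genes lay wholly above. In FPKM the replication member Mcm3 also lay wholly above, by a narrow margin (0.358 against 0.356), and the share of all genes in FPKM was not counted. Mcm2 was at 1.47, 1.58 and 1.77 FPKM with leucine, a difference of 0.54 from controls (SE 0.201, adjusted p = 0.422). Tk1 was at 3.38, 5.79 and 3.45 FPKM, a difference of 0.62 (SE 0.241, adjusted p = 0.429), and Tyms at 2.85, 2.45 and 1.98 FPKM, a difference of 0.50 (SE 0.234, adjusted p = 0.477). Rrm2 was at 0 in all controls and averaged under the floor with leucine, so no fold is given (adjusted p = 0.443). The markers Mki67 (-0.16, SE 0.499), Top2a (0.68, SE 1.16), Ccnb1 (-0.07, SE 1.67) and Pcna (-0.07, SE 0.166) did not pass, nor did Cdk1, which averaged under the floor in both groups.

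At d211 markers of some other cell types were also higher in the early weaned group. The sum of 6 cholangiocyte markers was 27.1, 16.1 and 30.6 FPKM after early weaning, 13.5, 8.26 and 11.5 in controls, and 10.1, 15.5 and 13.2 with leucine. No marker of that list was at 0 in a whole group. The sum of 8 lymphocyte markers was 5.58 to 9.29 FPKM after early weaning, 3.66 to 4.72 in controls and 4.14 to 6.82 with leucine. Erythroid markers were higher after early weaning in 8 of 8 tested genes, with a median of 0.593 and none past the test. Erythroid sums overlapped, at 1220 to 3160 FPKM after early weaning, 704 to 1780 in controls and 1790 to 3200 with leucine. Kupffer cell, endothelial and stellate sums overlapped between early weaned and control livers. Hepatocyte sums overlapped, at 70900 to 77200, 71800 to 78200 and 75000 to 83500 FPKM. The part of these cells in the members' values was not tested.

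Regulators outside the 43 also changed with age. Among 24 further replication genes, 1 rose and 1 fell in controls, namely Rfc3, a clamp loader subunit, by 1.55 (adjusted p = 0.0195) and the helicase subunit Mcm7, which fell by 0.77 (adjusted p = 0.0426). In early weaned livers the helicase subunit Mcm4 rose by 0.90 (adjusted p = 0.0122) and the primase Prim1 rose by 0.77 (adjusted p = 0.0413), and 0 of the list fell. Of 24 further mitosis genes, 22 were tested and 0 passed in either treatment with all libraries. All list counts here stand beside 17.6% of all genes in controls and 27% in early weaned livers.

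Inhibitors of the cycle that passed the test all fell. Of 12 inhibitors and pocket proteins with a row, 11 were tested, and 4 fell in controls and 6 in early weaned livers, with 0 rising. Btg2 fell by 5.79 in controls (SE 1.11, adjusted p = 0.00983) and fell by 6.56 in early weaned livers (SE 1.15, adjusted p = 0.00448). Its level was 303.05, 598.89 and 537.56 FPKM in early weaned livers at d23 and 6.31, 3.62 and 4.12 at d63. Cdkn1c, the inhibitor p57, fell by 1.26 in controls (adjusted p = 0.0160), and Wee1, which holds Cdk1 inactive, fell by 2.29 (adjusted p = 0.0211). In early weaned livers the p53 target Cdkn1a (p21) fell by 5.49 (adjusted p = 0.00254) and Cdkn1b (p27) fell by 0.80 (adjusted p = 0.00394).

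Of 9 G1 cyclins and kinases, 1 passed in controls: Cdc25a, a phosphatase that activates Cdk2, fell by 0.77 (adjusted p = 0.0246). In early weaned livers 2 rose and 2 fell, among them Ccnd1 (cyclin D1), which rose by 3.29 (adjusted p = 0.0196), Cdc25a, which fell by 0.73 (adjusted p = 0.0201), and Ccnd3 (cyclin D3), which fell by 0.62 (adjusted p = 0.0280). Of 16 transcription regulators, 14 were tested. In controls 3 passed: Myc fell by 4.90 (adjusted p = 0.00876), Tfdp1, a partner of E2F, fell by 0.57 (adjusted p = 0.0248), and the repressor E2f4 fell by 0.72 (adjusted p = 0.0496). In early weaned livers Myc fell by 5.41 (adjusted p = 0.00417) and E2f4 fell by 0.78 (adjusted p = 0.0292), while E2f3 rose by 0.87 (adjusted p = 0.0172). Hbegf, a ligand of the EGF receptor, fell by 2.90 in controls (adjusted p = 0.0458) and fell by 4.49 in early weaned livers (adjusted p = 0.00890), the only gene of 6 tested mitogen genes to pass with all libraries. None of these lists had a gene past the test in the early weaning and leucine comparisons by edgeR. Without d23 control replicate 3 the 11 list genes called in controls stayed past the test in the same direction, with Btg2 at -6.37 (SE 0.391), Myc at -5.45 (SE 0.443) and Rfc3 at 2.10 (SE 0.285). The count in controls was then 7 higher and 3 lower for the further replication genes, 3 and 0 for the further mitosis genes, and 0 and 7 for the inhibitors. It was 3 and 1 for the G1 genes, 0 and 4 for the transcription regulators, and 2 and 2 for the mitogens, where 37.9% of all genes passed. The counts in early weaned livers were then 8 and 2 for the further replication genes, 3 and 1 for the further mitosis genes, 3 and 2 for the G1 genes, 0 and 6 for the inhibitors, 2 and 3 for the transcription regulators, and 0 and 1 for the mitogens, where 37.3% of all genes passed.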

How the data were processed

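Gene-level RNA-seq tables were used for 12 Wistar and 9 Sprague Dawley liver libraries. The estimated counts and the FPKM values were deposited by the authors as 1 table per strain, per the file headers. Neither aligner nor counter was named in those headers or notes. The builds GRCm38 and mm10, which are mouse builds, stand in the submitters' processing notes, while the tables hold rat gene IDs; their coordinates are not printed. No table column went unused (0). Estimated counts, already whole numbers, were fitted with edgeR 4.0.16 in R 4.3.3 (quasi-likelihood test, TMM factors, filterByExpr with a minimum count of 10), 1 fit per strain over all its groups, with Benjamini-Hochberg adjustment. Checks used DESeq2 1.42.0 and limma 3.58.1 on log2(FPKM + 0.1) and log2(FPKM + 1). The main edgeR fit was tested on simulated counts, and these checks were not. Totals of 52054644 to 75118153 count units hold about 4 units per fragment, so counts under 12 units (3 fragments) were not read as levels. Named genes were the called members (up to 8) or else the 3 of smallest p, 7 standard markers, the 4 highest and 4 lowest members, and up to 3 called genes per other list. A result that this rule would name is not reported here. The members and lists were chosen with earlier results of these data known. Samples with the same replicate number did not deviate together (correlations -0.108 to 0.127 in Wistar and -0.0902 to 0.122 in Sprague Dawley libraries), so no pairing was used.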

Additional observations from a re-analysis of the deposited data

Results flagged for a closer look

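Mki67 differed in opposite directions after early weaning in the 2 strains and ages. Against controls it was higher at d211 in Sprague Dawley livers, by 1.11 on the log2 scale, and lower at d63 in Wistar livers, at -1.85. Every early weaned library lay above every control at d211, as for 11.2% of all genes, and below every control at d63, as for 9.19%. Mki67 was picked by a search of the members for opposite differences without overlap at d23, d63 and d211. The share of all genes with such opposite differences was not counted. Neither difference passed edgeR's test (adjusted p = 0.292 and 0.924), and the difference between them was not tested. Strain, age and table differ together here and cannot be told apart.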

How the results depend on the processing

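Counts of called members were 0 in every leave-one-out fit of the d23, d63, interaction and d211 comparisons (0 to 0). They ran from 3 to 9 for age in controls and from 2 to 7 for age in early weaned livers, where 7 is the fit without d23 control replicate 3, chosen after seeing the data. Leave-one-out medians ran from -4.25 to -0.28 at d23, -1.27 to -0.31 at d63, -2.62 to 1.39 for age in controls, -0.22 to 2.99 for the interaction and -0.65 to -0.18 for leucine against no leucine. Mki67 with age in controls ran from -2.99 to 2.03, and turned positive and passed without d23 control replicate 3. DESeq2 called 2 members at d23, 5 for age in early weaned livers, 1 at d211 and 1 for leucine against no leucine, and limma on log2(FPKM + 1) called 1 at d211. Fits on the compared groups alone called 1 for age in controls and 6 in early weaned livers, with fewer genes tested. With counts divided by 4 the medians were -0.82 at d23, -0.08 at d63, 1.45 for the interaction, -0.10 for leucine against no leucine and 0.33 for leucine against control. With limma on log2(FPKM + 0.1) and log2(FPKM + 1) they were -1.07 and -0.34 at d23, -0.38 and -0.07 at d63, -0.50 and -0.32 for age in controls, and 0.56 and 0.30 for the interaction; with the second they were 0.12 for early weaning at d211 and -0.10 for leucine against no leucine. Fits on the compared groups alone gave -1.72 at d23, -0.15 for leucine against no leucine and 0.31 for leucine against control. A larger pseudocount shrinks low genes by construction; the cause of the other shifts was not tested. With the replicate number as a block the medians were -0.82 for age in controls, 1.59 for the interaction and 0.23 for leucine against control; it dropped Tk1 for age in controls (adjusted p = 0.0629). Most members lie near the floor of 12 count units, which limits what depth can show.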

Other observations

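Immediate response genes outside the 43 lay close to the threshold at d211, and were chosen after their values were seen. Myc was at 17.2, 6.67 and 11.2 FPKM in early weaned livers, at 1.59, 2.67 and 1.31 in controls, and at 2.70, 0.924 and 1.76 with leucine. The early weaned libraries stood above all others, with a log2 difference of 2.40 from controls (SE 0.458, adjusted p = 0.0544 by edgeR) and of -2.52 with leucine against early weaning alone (SE 0.461, adjusted p = 0.0547). Btg2 was at 21.2, 12.5 and 29.9 FPKM in early weaned livers, at 5.70, 3.54 and 6.73 in controls and at 3.31, 6.24 and 4.76 with leucine (adjusted p = 0.0527 and 0.0507 for the same comparisons). Cdkn1a was at 69.0, 34.1 and 41.9 FPKM in early weaned livers, at 39.8, 22.04 and 12.3 in controls and at 10.3, 4.75 and 6.44 with leucine. Its early weaned and control libraries overlapped, with a difference of 0.75 (SE 0.420, adjusted p = 0.407), while leucine differed by -2.58 from early weaning alone (SE 0.444, adjusted p = 0.0525) and by -1.83 from controls (SE 0.433, adjusted p = 0.328). None of these passed the threshold.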
